A study of Mus musculus with 8 samples.

Results

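The genes described here lie along mouse chromosome 16 on both sides of Ifnar1, the gene deleted in the Ifnar1-/- mice. They are 48 gene symbols, chosen by position, and make up 49 of the 31053 rows of the count matrix because Atp5o is listed under 2 Ensembl identifiers. The neighbouring receptor genes and Grik1 were left out. Of the 49 rows, 20 lie at lower coordinates than Ifnar1 (chr16:91485238-91507441, plus strand, mm10), 29 lie at higher coordinates, and 26 are within 1 Mb of it. The stretch from the first to the last of them holds 150 rows of the matrix, so the members are a selection from it, made with earlier results of these data known.

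Nuclear RNA of the cortex was counted in single nuclei of 8 mice, 1 library each. The 4 Wt mice carried Ifnar1+/+ and the other 4 mice carried Ifnar1-/-. Each genotype held 2 females (F1, F2) and 2 males (M1, M2), all 6 weeks old, of C57BL6J strain and naive, that is without treatment. The Ifnar1-/- allele is carried by every cell and had been backcrossed to C57BL/6J, and in these mice the deletion and any chromosome 16 sequence bred with it cannot be told apart. Libraries held 44063346 to 58423423 UMIs (unique molecular identifiers, each marking 1 captured RNA molecule) as deposited. Pairs of libraries shared 3 to 30 cell barcodes, at most 0.333% of the smaller one.

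Of 56780 deposited barcodes, 51645 nuclei were kept and formed 46 clusters. The classes tested, each named from marker genes, were 26312 glutamatergic neurons, 6360 GABAergic neurons, 7089 oligodendrocytes, 4385 microglia and 448 oligodendrocyte precursors. Median UMIs per nucleus were 1472 in microglia, 2057 in oligodendrocytes, 6965 in GABAergic and 8867 in glutamatergic neurons. The 162 astrocytes were too few for a test. Named but not tested on their own were also 955 striatal projection neurons (59 to 276 nuclei per library) and 209 newly formed oligodendrocytes. A further 5725 nuclei (11.1%) in 10 clusters met no class rule and were left unnamed, so they entered only the test of all nuclei. Ifnar1 itself still gave 3454 UMIs in Wt and 2769 in Ifnar1-/- nuclei, with a log2 fold change of -0.23 (SE 0.10, unadjusted p = 0.0518, edgeR's quasi-likelihood test), and since the deleted exons are not given in the sources used here, this count over the whole gene body is a weak check of the genotype labels. In microglia it gave 199 UMIs in Wt and 98 in Ifnar1-/- at a log2 fold change of -0.81 (SE 0.22, adjusted p = 1).

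Ifnar1 encodes a subunit of the receptor for type I interferons, the cytokines that switch on antiviral genes through the JAK and STAT proteins. The mouse chromosome 16 segment around it corresponds to a stretch of the human chromosome that is present in an extra copy in Down syndrome, and several of its genes are studied for that reason, among them Sod1, Dyrk1a, Olig1, Olig2, Synj1, Itsn1, Rcan1 and Kcnj6. When a targeted allele is backcrossed, the genes nearest to it are the last to be exchanged for those of the recipient strain, so neighbours of a deleted gene are commonly looked at by distance.

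The results turn mainly on 3 of the genes. Gm15965 (ENSMUSG00000085279, chr16:90983907-90987237, plus strand) is a non-coding RNA transcribed from within Synj1 on the opposite strand, 0.498 Mb from Ifnar1. It has 2 exons with 1428 bases in all, none of them shared with an exon of Synj1. Eva1c (ENSMUSG00000039903, chr16:90826719-90905109, plus strand) encodes a membrane protein with a lectin-type extracellular part and lies 0.58 Mb from Ifnar1. AC134560.1 (ENSMUSG00000116543, chr16:90836596-90850963, minus strand), which RefSeq lists as Gm36363, is a non-coding RNA of 4 exons inside Eva1c on the opposite strand, 0.634 Mb from Ifnar1, and none of its 632 exon bases fall in an exon of Eva1c. Unspliced reads were counted too, so the lack of shared exon bases does not keep these pairs apart in the counts. Over whole gene bodies Gm15965 overlaps Synj1 by 3331 bases and AC134560.1 overlaps Eva1c by 14368 bases. The kit marks the strand of each RNA, but the strand setting used for counting is not given in the sources used here, so a share of antisense reads in these overlapping pairs cannot be set aside.

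The 250 bases before the RefSeq starts of Eva1c and AC134560.1 are shown because these overlapping genes were both higher in Ifnar1-/- GABAergic neurons. Both are GRCm38 reference sequence in the direction of transcription, not sequence of these mice, and all letters are lower case because no motif is marked. The Eva1c window is chr16:90830609-90830858 (plus strand) and the AC134560.1 window is chr16:90851144-90851393 (minus strand).
Eva1c: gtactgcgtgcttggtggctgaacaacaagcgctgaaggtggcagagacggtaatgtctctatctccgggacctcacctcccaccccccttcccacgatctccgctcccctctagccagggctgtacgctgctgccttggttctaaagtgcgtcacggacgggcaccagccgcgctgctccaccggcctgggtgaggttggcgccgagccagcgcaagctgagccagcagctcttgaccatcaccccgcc
AC134560.1: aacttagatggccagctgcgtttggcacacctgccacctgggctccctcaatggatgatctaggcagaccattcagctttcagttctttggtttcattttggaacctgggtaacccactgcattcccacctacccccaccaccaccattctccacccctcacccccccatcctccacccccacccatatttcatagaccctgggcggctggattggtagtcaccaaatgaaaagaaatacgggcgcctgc

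By the coordinates above both windows lie inside the body of Eva1c, since the RefSeq start used for Eva1c lies within the gene as listed. GC content over the 300 bases around the start was 64.3% for Eva1c and 54% for AC134560.1, against a median of 52.7% over all promoter windows of that length in RefSeq (GRCm38.p6) and 64.3% over those of the members. Of the 48 members, 42 had such a window. The core of the interferon-stimulated response element, read as GAAA, any 2 bases and GAAA again and searched on both strands, was found in 0 of the 42 members and in 3.44% of 32851 promoters. The gamma-activated sequence TTCNNNGAA, read the same way since it is its own reverse complement, was found in 2 of the 42 (Atp5o and Kcnj6) and in 8.3% of all promoters. These counts describe the letters in the windows and say nothing about binding.

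Gm15965 was lower in Ifnar1-/- mice in every class tested, and microglia was where it passed the test across all genes. In microglia it stood at 41.5, 33.9, 54.7 and 62.3 CPM (UMIs scaled to a common library total) in Wt F1, F2, M1 and M2 and at 18.4, 13.0, 12.7 and 15.6 CPM in the same order of Ifnar1-/- mice. The lowest Wt mouse was above the highest Ifnar1-/- mouse. The means were 48.1 ± 12.8 and 14.9 ± 2.65 CPM (SD, n = 4 each), a log2 fold change of -1.74 (SE 0.28) with an adjusted p = 0.0494 by edgeR's quasi-likelihood test with Benjamini-Hochberg adjustment over the 9558 genes tested in microglia. These values rest on 169 UMIs in Wt and 43 in Ifnar1-/-. Ifnar1-/- F1 had the fewest microglia, 155 nuclei with 173791 UMIs over all genes, so its level rests on very few molecules. The call was lost when any library other than Wt F2 was left out (adjusted p 0.125 to 0.246, and 0.0406 without Wt F2) and without TMM scaling (adjusted p = 0.0553).

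Glutamatergic neurons gave the largest number of Gm15965 molecules, 6170 UMIs in Wt and 2884 in Ifnar1-/-. The levels were 43.9, 40.4, 51.7 and 53.0 CPM in Wt F1, F2, M1 and M2, and 20.1, 23.6, 28.6 and 19.8 CPM in Ifnar1-/-, with no overlap. The means of 47.2 ± 6.11 and 23.0 ± 4.08 CPM (SD, n = 4) correspond to a log2 fold change of -1.03 (SE 0.15, adjusted p = 0.0797), short of the threshold. With the mouse label as a replicate block the log2 fold change was -1.04 and the gene passed (adjusted p = 0.0352). No sample label states that same-labelled mice were matched. In GABAergic neurons the levels were 38.6, 38.4, 42.9 and 45.0 CPM in Wt and 19.4, 22.5, 27.4 and 16.7 CPM in Ifnar1-/- (log2 fold change -0.94, SE 0.16, adjusted p = 0.276). In oligodendrocytes they were 18.8, 20, 23.4 and 22.4 CPM in Wt and 9.18, 8.15, 13.5 and 6.79 CPM in Ifnar1-/- (log2 fold change -1.20, SE 0.24, adjusted p = 0.36). The genotypes did not overlap in either class.

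Over all nuclei together Gm15965 stood at 41, 39.2, 49.4 and 50.4 CPM in Wt and 19.0, 21.6, 27.9 and 17.9 CPM in Ifnar1-/- (45.0 ± 5.70 and 21.6 ± 4.47 CPM, SD, n = 4; log2 fold change -1.06, SE 0.16, adjusted p = 0.125). In such a sum fewer nuclei of a type and less RNA per nucleus cannot be told apart. The direction did not hang on the choice of cells, since Gm15965 was lower in Ifnar1-/- in 39 of the 39 clusters where it had at least 20 UMIs, with log2 ratios from -2.31 to -0.40. It was also lower within females and within males in each class. The difference between classes in its genotype effect was tested for 6 pairs of classes by an exact permutation test over the 70 ways to relabel the mice, and none passed (p = 0.114 to 0.343, adjusted p = 0.206 to 0.343, two-sided).

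**Figure D1:**
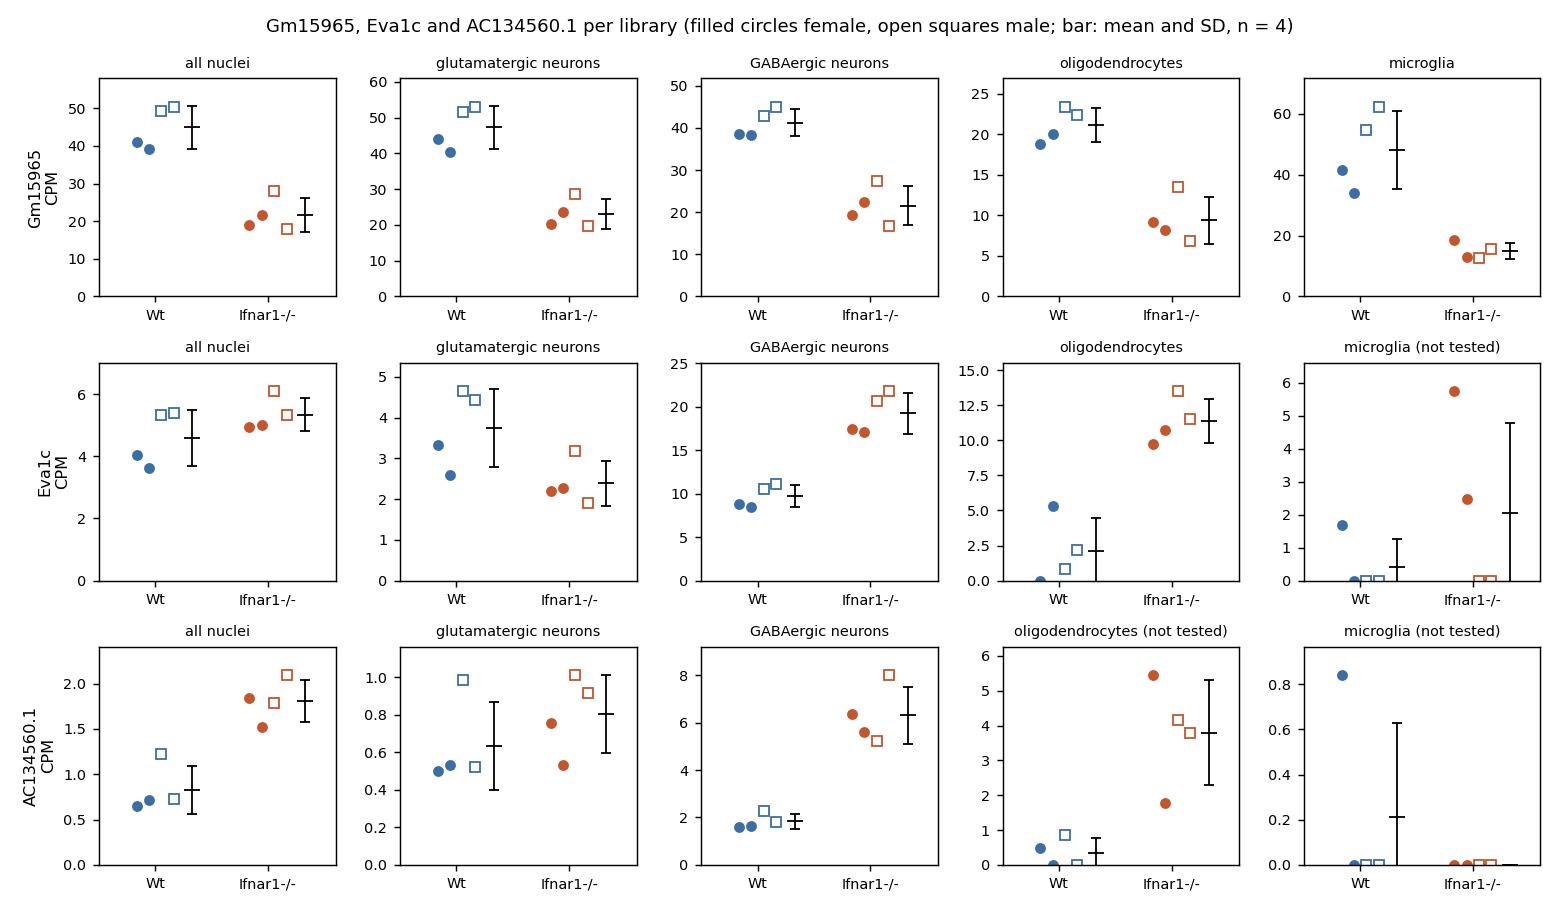
Gm15965 (top), Eva1c (middle) and AC134560.1 (bottom) in CPM per library, with cell classes in columns, Wt mice in blue and Ifnar1-/- mice in orange, filled circles for females, open squares for males, and bars for the mean and SD of 4 mice. Gm15965 is lower in all 4 Ifnar1-/- mice in every column (in microglia 12.7 to 18.4 against 33.9 to 62.3 CPM), while Eva1c is lower on average in glutamatergic neurons and higher in GABAergic neurons and oligodendrocytes.

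Synj1, which encodes the phosphoinositide phosphatase synaptojanin needed to uncoat synaptic vesicles, contains Gm15965 and showed overlapping genotypes. Over all nuclei it stood at 136, 128, 116 and 108 CPM in Wt and 115, 122, 111 and 125 CPM in Ifnar1-/- mice, which overlap (log2 fold change -0.04, SE 0.09, unadjusted p = 0.643). In microglia its log2 fold change was -0.05 (SE 0.17). RNA of other cells was counted in microglia as well, where the 6 glutamatergic marker genes summed to 225 CPM, 19.7% of their level in glutamatergic neurons, with 174 to 299 CPM over Wt and 103 to 321 CPM over Ifnar1-/- libraries. Kcnj6, a member with a high level in glutamatergic neurons (268 CPM), was at 10.2 CPM in microglia, while Gm15965 was at 31.8 CPM in microglia and 35.7 CPM in glutamatergic neurons, all from pooled counts. The part of such free RNA in the microglial difference was not tested.

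Eva1c had genotype differences of opposite sign among the classes and passed the adjusted threshold in none. In GABAergic neurons it stood at 8.87, 8.44, 10.5 and 11.1 CPM in Wt F1, F2, M1 and M2 and at 17.4, 17.1, 20.7 and 21.8 CPM in Ifnar1-/-. All 4 Ifnar1-/- mice were above all 4 Wt mice (9.71 ± 1.26 and 19.2 ± 2.37 CPM, SD, n = 4; log2 fold change 0.99, SE 0.15, unadjusted p = 0.000102, adjusted p = 0.165). In oligodendrocytes it gave 0, 8, 2 and 5 UMIs in Wt and 17, 17, 20 and 34 UMIs in Ifnar1-/-, or 2.09 ± 2.35 and 11.4 ± 1.6 CPM (log2 fold change 2.55, SE 0.59, adjusted p = 0.854), again without overlap but on few molecules. In glutamatergic neurons the order turned, with 3.32, 2.60, 4.65 and 4.43 CPM in Wt and 2.19, 2.28, 3.17 and 1.90 CPM in Ifnar1-/- (log2 fold change -0.65, SE 0.24, unadjusted p = 0.0247, adjusted p = 1), where the genotypes overlapped. Over all nuclei these differences nearly cancelled, at 4.59 ± 0.908 and 5.34 ± 0.534 CPM (log2 fold change 0.22, SE 0.17).

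The difference between classes was tested for Eva1c after its values had been seen. This test used mean log2 CPM with 0.5 UMIs added per library, which put the effects at -0.65 in glutamatergic neurons, 0.97 in GABAergic neurons and 3.07 in oligodendrocytes, against 2.55 in the fit above for oligodendrocytes, where a Wt library had 0 UMIs. On that scale the genotype effect was higher by 1.62 in GABAergic than in glutamatergic neurons, and by 3.72 in oligodendrocytes than in glutamatergic neurons. Each gave p = 0.0286 in the exact permutation test, the smallest p that free relabelling of 4 against 4 mice allows, and an adjusted p = 0.129 over the 9 such tests. With relabelling kept within the pairs of same-labelled mice, as a replicate block, each gave an exact p = 0.125, the smallest that the 16 ways allow, so the paired design cannot reach 0.05. Between GABAergic neurons and oligodendrocytes the effects differed by 2.10 (exact permutation p = 0.114).

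Within GABAergic neurons the higher Eva1c counts in Ifnar1-/- sat mostly in a single cluster. Its leading genes were Btbd11, Tmem132c, Kcnmb2 and Eya4, and 43.9% of its 2131 nuclei held a UMI of Pvalb, the calcium-binding protein of fast-spiking interneurons, against 2.38 to 19.8% in the other GABAergic clusters. A UMI of Sst was held by 28.1% of its nuclei, against 97.4% in the cluster led by Sst and 16.2 to 20.7% in the remaining ones. There Eva1c stood at 5.10, 1.62, 3.19 and 2.14 CPM in Wt and 22.9, 21.1, 30.8 and 25.2 CPM in Ifnar1-/-, from 32 and 202 UMIs, a log2 ratio of 3.02. In the cluster led by Sst the log2 ratio was -0.19 (41 and 31 UMIs), in the cluster led by Vip 0.41 (136 and 172 UMIs) and in the cluster led by Egfr and Pnoc -0.64 (39 and 27 UMIs). The 3 unnamed clusters with at least 20 UMIs of Eva1c, outside the class tested, had log2 ratios from -0.01 to 0.56. One of them, of 3436 nuclei with Gad2 among its leading genes, was at -0.01 (64 and 70 UMIs). Among glutamatergic clusters with at least 20 UMIs of Eva1c, 10 of 12 were lower in Ifnar1-/-, with log2 ratios from -1.61 to 0.38. The clusters were picked for description after these values were seen and carry no test.

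**Figure D2:**
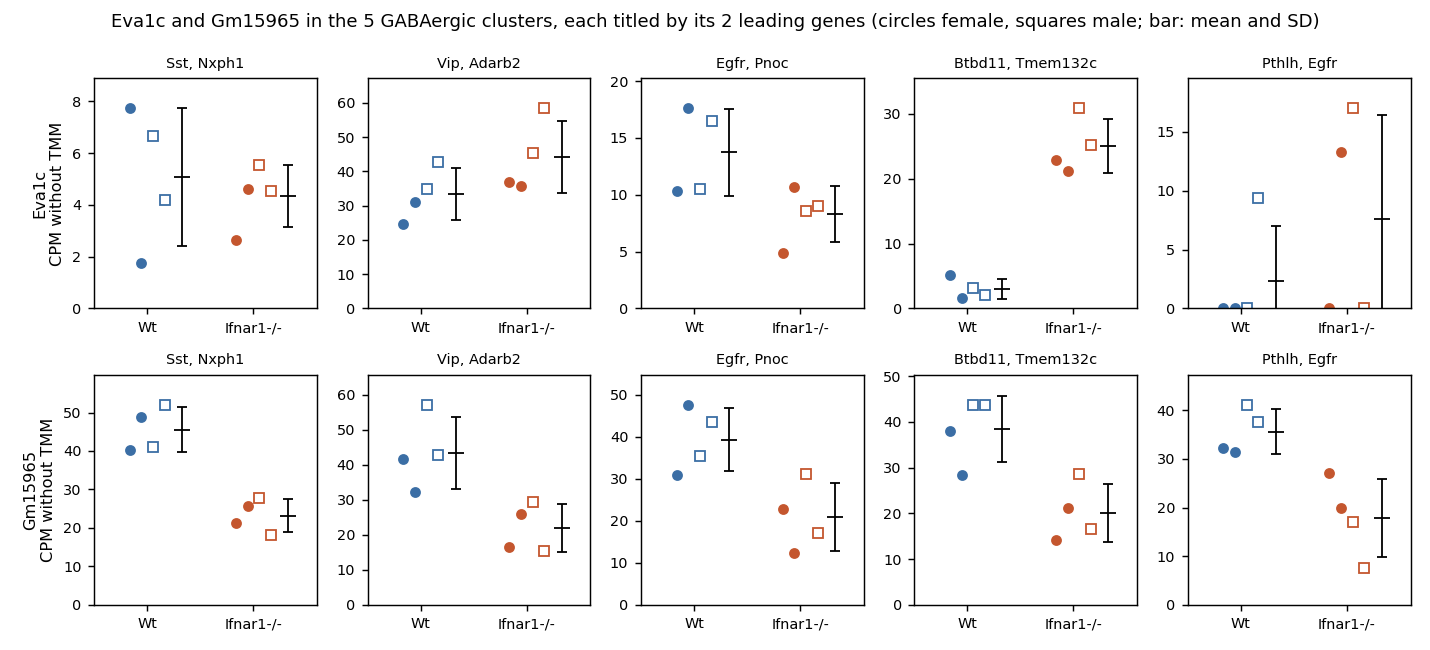
CPM without TMM scaling of Eva1c (top) and Gm15965 (bottom) per library in the 5 GABAergic clusters, each titled by its 2 leading genes, with circles for females, squares for males and bars for the mean and SD over libraries. Eva1c separates the genotypes in the cluster led by Btbd11 and Tmem132c (1.62 to 5.10 against 21.1 to 30.8 CPM), whereas Gm15965 is lower on average in Ifnar1-/- in all 5.

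AC134560.1 was scarce and, over GABAergic neurons together, higher in Ifnar1-/- as Eva1c was. It stood there at 1.61, 1.62, 2.29 and 1.82 CPM in Wt and 6.37, 5.63, 5.23 and 8.00 CPM in Ifnar1-/-, with no overlap (1.83 ± 0.319 and 6.31 ± 1.22 CPM, SD, n = 4; log2 fold change 1.77, SE 0.24, unadjusted p = 2.99e-05, adjusted p = 0.0866). In the Btbd11 cluster it rested on 7 UMIs in Wt and 62 in Ifnar1-/- (log2 ratio 3.51). The pair parted in other GABAergic clusters, since AC134560.1 went from 4 to 17 UMIs in the cluster led by Egfr and Pnoc (log2 ratio 1.98, against -0.64 for Eva1c) and from 6 to 12 UMIs in that led by Sst (1.21, against -0.19). Over all nuclei it was at 0.652, 0.717, 1.22 and 0.726 CPM in Wt and 1.84, 1.52, 1.79 and 2.09 CPM in Ifnar1-/- (log2 fold change 1.12, SE 0.24, adjusted p = 0.635), and in oligodendrocytes, where it was too rare to test, it gave 3 UMIs in Wt and 30 in Ifnar1-/-. In glutamatergic neurons its log2 fold change was 0.35 (SE 0.31), so it did not share the lower Eva1c value of that class.

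Across the members the genotype difference was small. Of 196 tests (a member in a comparison), 1 passed the adjusted threshold, Gm15965 in microglia, where 10 of 9558 genes (0.105%) passed. The count was 0 of 45 members in all nuclei (0.0452% of all genes passed), 0 of 31 in oligodendrocytes (0.0632%), 0 of 43 in glutamatergic neurons (0.0702%), 0 of 37 in GABAergic neurons (0.0276%) and 0 of 13 in oligodendrocyte precursors (0% of 2900 genes). At an unadjusted p under 0.05, 4 of 45 members stood out in all nuclei (1.46% of all genes did), 3 of 31 in oligodendrocytes (1.96%), 5 of 43 in glutamatergic neurons (1.73%), 2 of 27 in microglia (1.55%), 5 of 37 in GABAergic neurons (1.82%) and 1 of 13 in oligodendrocyte precursors (3.41%). Genotypes without overlap were seen for 5 members in all nuclei (1.22% of all genes), 3 in oligodendrocytes (1.69%), 3 in glutamatergic neurons (1.49%), 2 in microglia (1.53%), 5 in GABAergic neurons (1.66%) and 0 in oligodendrocyte precursors (2.59%). At the unadjusted threshold the members' share was above that of all genes in each comparison, and without overlap it was so in each comparison but oligodendrocyte precursors, yet the members were chosen with such results known and the classes come from the same mice. The median size of the log2 fold change was 0.09 over members and 0.10 over all genes in all nuclei, 0.08 and 0.10 in glutamatergic neurons, 0.10 and 0.11 in GABAergic neurons, and 0.11 and 0.13 in oligodendrocytes, so the median member lay no farther from 0 than the median gene there. In microglia the medians were 0.16 and 0.15, and in oligodendrocyte precursors 0.23 and 0.19.

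**Figure D3:**
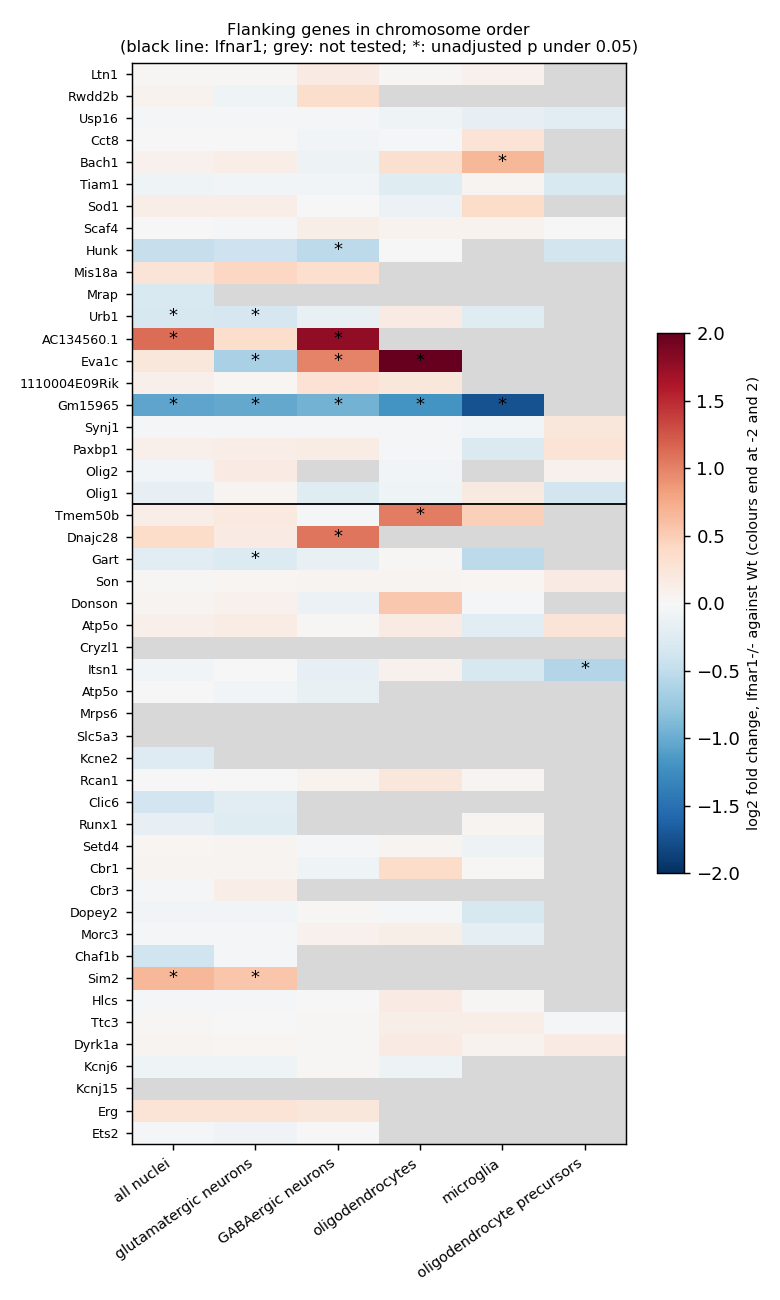
Log2 fold change of each of the 49 rows (Ifnar1-/- against Wt, colours ending at -2 and 2) in chromosome order, with comparisons in columns, a black line at Ifnar1, grey for rows not tested and a star for an unadjusted p under 0.05. Most cells are pale, and the deepest colours are those of Eva1c in oligodendrocytes (2.55), AC134560.1 in GABAergic neurons (1.77) and Gm15965 in microglia (-1.74), all above the line, while below it Dnajc28 in GABAergic neurons (1.07) and Tmem50b in oligodendrocytes (1.03) stand out.

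The members that stood out lay mostly close to Ifnar1, in a set that leaves out Grik1, 3.195 Mb away. Of 99 tests of members within 1 Mb, 17 had an unadjusted p under 0.05, against 3 of 97 tests beyond 1 Mb, and 9 of the 11 members concerned were within 1 Mb. Over all genes the share was 1.46% to 3.41%, depending on the comparison. These tests repeat the same genes and mice, and all nuclei include the classes, so they are not independent counts. In all nuclei the median size of the log2 fold change was 0.16 within 1 Mb, 0.05 from 1 to 3 Mb and 0.05 from 3 to 5 Mb. The same medians were 0.16, 0.06 and 0.07 in glutamatergic neurons and 0.15, 0.04 and 0.05 in GABAergic neurons. They take no account of how abundant or how precisely measured a gene is, and this part was not tested. In all nuclei imprecise rows within 1 Mb include Mrap (-0.3, SE 0.43) and Kcne2 (-0.26, SE 0.41). Such rows also lie farther away, such as Chaf1b (-0.4, SE 0.37). In microglia the values were 0.23, 0.08 and 0.16, and in oligodendrocytes 0.13, 0.12 and 0.10, so the neuronal medians were lower beyond 1 Mb while those of oligodendrocytes were close to each other. Within 1 Mb the side of lower coordinates, which holds Hunk, Urb1, AC134560.1, Eva1c and Gm15965, gave 3 of 12 members in all nuclei and 4 of 10 in GABAergic neurons, against 0 of 11 and 1 of 9 on the other side. The share over all genes was 1.46% and 1.82%. In glutamatergic neurons Urb1, Eva1c and Gm15965 stood out on the lower side and Gart on the other. In oligodendrocytes these were Eva1c and Gm15965 on the lower side and Tmem50b on the other. In oligodendrocyte precursors only Itsn1, on the other side, stood out. The difference between the sides was not tested.

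The same count was taken over genes of the interval that are not members, and the difference from the members was not tested. In all nuclei 0 of 19 other chromosome 16 genes within 1 Mb had an unadjusted p under 0.05, and in glutamatergic neurons 0 of 17. In GABAergic neurons 1 of 7 did, 4932438H23Rik (log2 fold change -0.80, unadjusted p = 0.0188), against 5 of 19 members, and in oligodendrocytes 1 of 6, the same gene (log2 fold change -0.94), against 3 of 16 members. In all nuclei the 19 non-members had log2 fold changes from -0.49 (AC160759.1) to 0.39 (AC150035.3). The share over all genes was 1.46% in all nuclei, 1.73% in glutamatergic neurons, 1.82% in GABAergic neurons and 1.96% in oligodendrocytes. Beyond 5 Mb on chromosome 16 the share was 1.79% in all nuclei and 2.09% in glutamatergic neurons. Counts of non-members from 1 to 5 Mb are not given here. Grik1, not a member and 3.195 Mb away, was higher in Ifnar1-/- oligodendrocytes, with 1234 UMIs in Wt and 4100 in Ifnar1-/-. Its log2 fold change there was 1.83 (SE 0.13, adjusted p = 0.000312, edgeR's quasi-likelihood test). Over all nuclei it was 0.05 (SE 0.11).

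**Figure D4:**
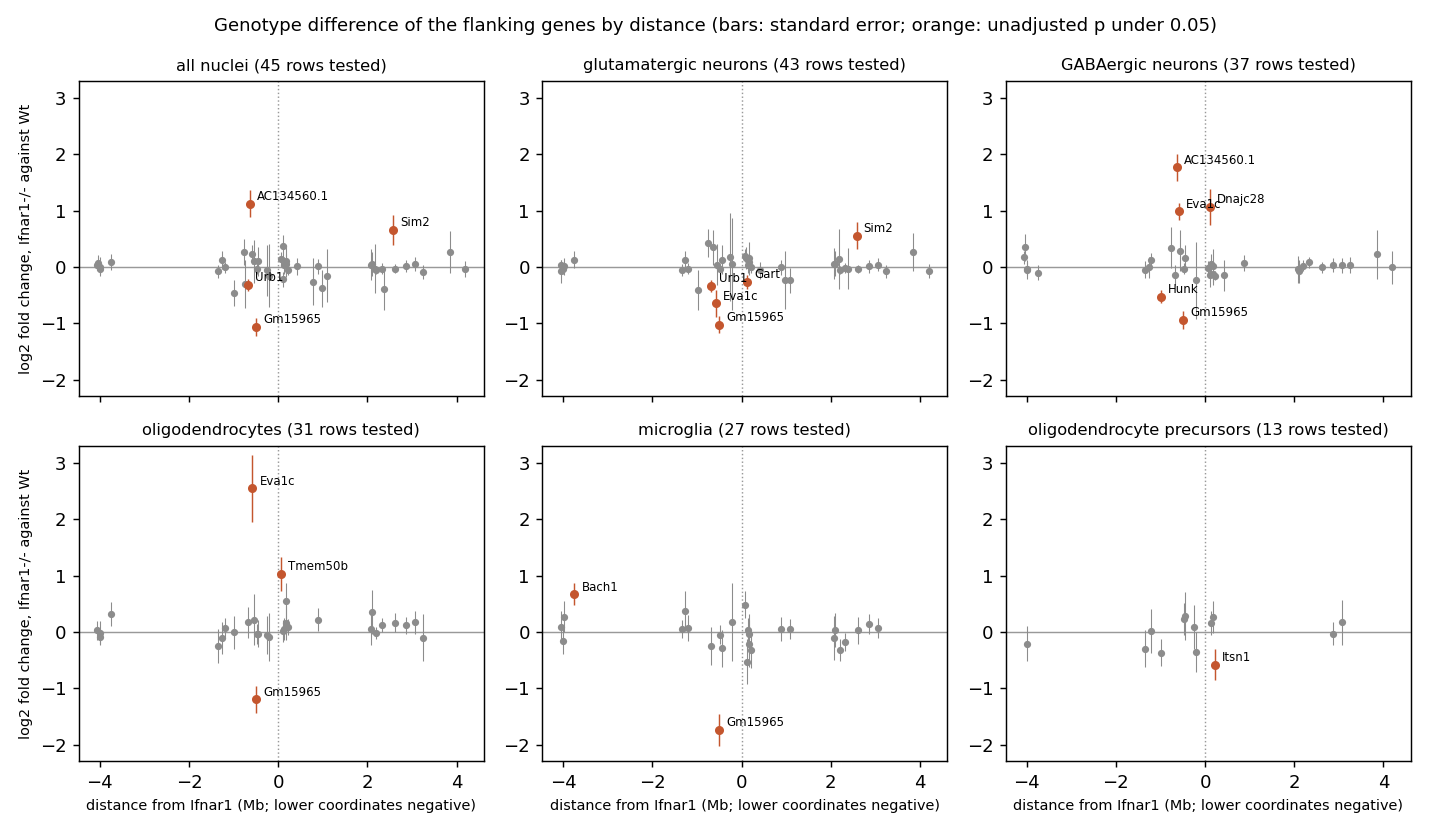
Log2 fold change (Ifnar1-/- against Wt) of each member tested, against its distance from Ifnar1 in Mb with lower coordinates negative, 1 panel per comparison, with bars for the standard error and orange for an unadjusted p under 0.05. Orange points gather within 1 Mb (17 of 20), and the exceptions are Sim2 in all nuclei and glutamatergic neurons and Bach1 in microglia.

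Among kinases and signalling proteins, Hunk, a kinase of the SNF1 family 0.986 Mb from Ifnar1, was lower in GABAergic neurons. It stood there at 133, 107, 113 and 123 CPM in Wt and 77.7, 69.0, 86.9 and 95.3 CPM in Ifnar1-/-, without overlap (log2 fold change -0.53, SE 0.12, unadjusted p = 0.00138, adjusted p = 0.999). Over all nuclei the mice overlapped, with 38.4, 31.2, 59.1 and 44.6 CPM in Wt and 23.3, 26.8, 37.4 and 38.1 CPM in Ifnar1-/- (log2 fold change -0.46, SE 0.23). Dyrk1a, a dosage-sensitive kinase of neuronal development 3.063 Mb away, was at 98.7 ± 13.8 CPM in Wt and 102 ± 9.60 CPM in Ifnar1-/- over all nuclei (114, 106, 84.4 and 90.3 against 97.5, 107, 91.6 and 113), a log2 fold change of 0.05 (SE 0.12). The group, with Tiam1 and Rcan1, had 0 of 4 members at an unadjusted p under 0.05 in all nuclei (1.46% of all genes) and 1 of 4 in GABAergic neurons (1.82%).

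Of 4 vesicle and endocytic trafficking genes, Tmem50b, a small membrane protein of the secretory pathway and the nearest member to Ifnar1 (0.067 Mb), was higher in oligodendrocytes. It gave 13, 12, 23 and 19 UMIs in Wt and 21, 19, 23 and 75 UMIs in Ifnar1-/-, or 6.62, 8.01, 9.27 and 8.36 against 12.0, 11.9, 15.5 and 25.5 CPM (log2 fold change 1.03, SE 0.30, unadjusted p = 0.00582, adjusted p = 1). The highest value was Ifnar1-/- M2, and without that mouse the log2 fold change was 0.69. Over all nuclei Tmem50b was at 13.3, 12.7, 13.2 and 16 CPM in Wt and 13.7, 14.1, 15.2 and 17.7 CPM in Ifnar1-/- (log2 fold change 0.14, SE 0.13). Itsn1, a scaffold of clathrin-mediated endocytosis, stood at 131, 124, 138 and 136 CPM in Wt and 110, 124, 138 and 137 CPM in Ifnar1-/- over all nuclei (log2 fold change -0.05, SE 0.09). In oligodendrocyte precursors it rested on 65 and 61 UMIs and gave a log2 fold change of -0.58 (SE 0.27, unadjusted p = 0.0472, adjusted p = 0.999), with overlap.

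Transcription factors among the members mark different cell classes. Bach1, a heme-regulated repressor of antioxidant genes 3.752 Mb from Ifnar1, was higher in microglia, where it stood at 70.0, 63.6, 67.5 and 49.3 CPM in Wt and 98.1, 116, 73.8 and 109 CPM in Ifnar1-/-, without overlap (log2 fold change 0.67, SE 0.20, unadjusted p = 0.00657, adjusted p = 1). Both microglial clusters had it higher, by log2 ratios of 0.75 and 0.78. Runx1, a regulator of blood and microglial lineages, was at 775 CPM in microglia and 0.966 CPM in glutamatergic neurons. Its microglial level did not separate the genotypes (916, 899, 607 and 671 against 791, 890, 686 and 828 CPM, log2 fold change 0.05, SE 0.18). Over all nuclei Runx1 was at 22.6, 16, 8.52 and 18.2 CPM in Wt and 4.77, 17.3, 11.5 and 24.9 CPM in Ifnar1-/-, with overlap.

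Olig1 and Olig2, the basic helix-loop-helix factors of the oligodendrocyte lineage, stood at 216 and 116 CPM in oligodendrocyte precursors, 80.3 and 68.7 CPM in the 209 newly formed oligodendrocytes, and 99.0 and 35.4 CPM in oligodendrocytes, and were low in glutamatergic neurons (1.75 and 0.371 CPM). Over all nuclei Olig1 was at 3.34, 2.37, 11.2 and 13.3 CPM in Wt and 5.52, 3.63, 7.33 and 10.4 CPM in Ifnar1-/- (log2 fold change -0.16, SE 0.56), and Olig2 at 1.34, 1.01, 4.06 and 3.88 CPM and 2.34, 1.77, 2.49 and 3.27 CPM (log2 fold change -0.06, SE 0.45). Both were lower in the females of each genotype than in the males. Within oligodendrocytes their log2 fold changes were -0.09 (SE 0.43) and -0.05 (SE 0.34), with overlap.

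Sim2, a bHLH-PAS factor 2.577 Mb away, was near the lower limit of counting, at 0.735, 0.798, 0.523 and 0.450 CPM in Wt and 1.11, 0.875, 0.836 and 0.885 CPM in Ifnar1-/- glutamatergic neurons (log2 fold change 0.55, SE 0.24, unadjusted p = 0.0463, adjusted p = 1).

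Of the genes for metabolism and redox, Gart, a multifunctional enzyme of purine synthesis 0.114 Mb from Ifnar1, was lower in glutamatergic neurons, at 16.8, 19.1, 16.6 and 18.8 CPM in Wt and 13.0, 15.3, 17.1 and 13.5 CPM in Ifnar1-/-. The genotypes overlapped through Ifnar1-/- M1 (log2 fold change -0.27, SE 0.12, unadjusted p = 0.0475, adjusted p = 1). Over all nuclei Gart was at 18.0, 21.2, 18.5 and 21.7 against 14.3, 18.3, 19.4 and 16 CPM (log2 fold change -0.22). Sod1, the cytosolic superoxide dismutase, was at 13.8, 13.9, 16.3 and 19.4 CPM in Wt and 17.0, 13.7, 17.5 and 20.9 CPM in Ifnar1-/- (log2 fold change 0.13, SE 0.16). Cbr1 and Cbr3, the carbonyl reductase pair, gave log2 fold changes of 0.05 (SE 0.21) and -0.03 (SE 0.44) over all nuclei. Cbr1 stood at 10.3, 9.90, 14.0 and 15.8 against 13.2, 10.5, 17.1 and 10.9 CPM, and Cbr3 at 0.553, 0.269, 1.16 and 1.16 against 0.586, 0.597, 0.819 and 1.07 CPM. Among these genes 1 of 7 tested rows had an unadjusted p under 0.05 in glutamatergic neurons (1.73% of all genes), and 0 had it in the other comparisons.

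Among genes of RNA processing and the ribosome, Urb1, a nucleolar protein of ribosome assembly 0.675 Mb from Ifnar1, was lower in glutamatergic neurons at 16.7, 15.8, 17.2 and 15.5 CPM in Wt and 12.4, 14.5, 13.0 and 11.6 CPM in Ifnar1-/-, without overlap (log2 fold change -0.34, SE 0.11, unadjusted p = 0.0111, adjusted p = 1). Its log2 fold change was -0.32 (SE 0.10) over all nuclei, at 15.6, 15.3, 15.9 and 13.6 against 11.9, 12.7, 12.7 and 11.2 CPM, and -0.15 (SE 0.18) in GABAergic neurons. Son, the splicing cofactor with 126787 UMIs, gave 0.03 over all nuclei.

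Among folding and turnover genes, Dnajc28, a J-domain protein 0.107 Mb away, gave 8, 4, 9 and 5 UMIs in Wt and 12, 9, 13 and 13 UMIs in Ifnar1-/- GABAergic neurons, or 1.01 ± 0.349 and 2.18 ± 0.536 CPM (log2 fold change 1.07, SE 0.32, unadjusted p = 0.00858, adjusted p = 1). The genotypes did not overlap, but no mouse gave more than 13 molecules. Over all nuclei it stood at 1.28, 1.08, 1.20 and 0.908 against 1.45, 1.29, 1.32 and 1.75 CPM (log2 fold change 0.37, SE 0.19), again without overlap. Ttc3, an E3 ubiquitin ligase and the most abundant member (232267 UMIs), had a log2 fold change of 0.02.

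**Figure D5:**
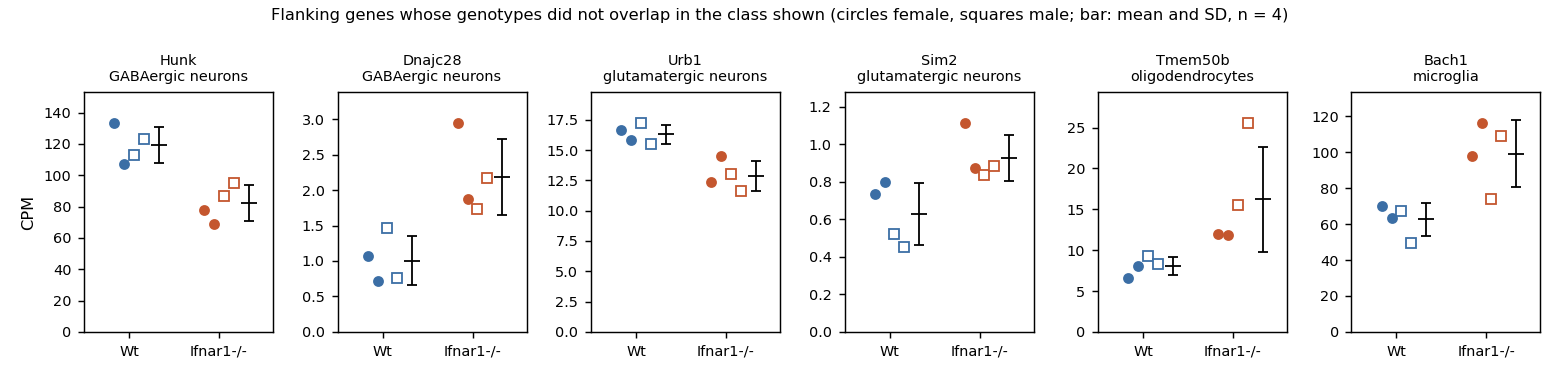
CPM per library of Hunk, Dnajc28, Urb1, Sim2, Tmem50b and Bach1, each in the class named over its panel, with blue for Wt, orange for Ifnar1-/-, circles for females, squares for males and bars for the mean and SD of 4 mice. In each panel the genotypes do not overlap, yet no adjusted p passed, and the high Tmem50b mean in Ifnar1-/- oligodendrocytes leans on M2 (25.5 CPM).

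The 6 chromatin, replication and centromere genes, among them Paxbp1, which links a paired-box factor to histone methylation, had no test at an unadjusted p under 0.05 in any comparison. Paxbp1 was at 55.7, 44.9, 94.2 and 90.0 CPM in Wt and 61.1, 62.4, 94.2 and 87.7 CPM in Ifnar1-/- over all nuclei (log2 fold change 0.10, SE 0.26), higher in males of both genotypes. Of the channels and transporters, Kcnj6, the G-protein-gated potassium channel subunit that dampens neuronal firing, was at 311, 301, 237 and 258 CPM in Wt and 289, 265, 222 and 268 CPM in Ifnar1-/- glutamatergic neurons (log2 fold change -0.08, SE 0.11). Over all nuclei it stood at 243, 253, 187 and 200 against 232, 201, 186 and 212 CPM (log2 fold change -0.09, SE 0.12).

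The 4 rows left were tested in no comparison. Cryzl1 and Slc5a3 had 0 UMIs, Mrps6 had 10 and Kcnj15 had 26. The bodies of the first 3 are overlapped on the same strand by another row, Cryzl1 by Atp5o (39654 bases), Slc5a3 and Mrps6 by each other and by AC144408.3 (29152 and 53912 bases with AC144408.3), so their counts are uncertain. The Atp5o row with more UMIs (ENSMUSG00000116933, 76807 UMIs) is a long one, chr16:91684398-91926982. Besides Cryzl1 it shares bases on the same strand with Donson (4373 bases) and with the other Atp5o row (1769 bases). That other row (ENSMUSG00000022956) had 1669 UMIs. On the opposite strand the long row overlaps Itsn1 over 191317 bases. Its counts therefore cannot be assigned to Atp5o alone. The other 45 rows were tested in all nuclei, 11 of them in all 6 comparisons.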

How the data were processed

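The authors prepared nuclei from snap-frozen cortex, made 10x 3' v3 libraries and counted unspliced as well as spliced reads with Cell Ranger on mm10, so the deposited values are raw UMI counts per gene and nucleus, with no normalization (Seurat 3.1.5 is named in the submitters' processing notes). Its strand setting is not given in the sources used here. Nuclei with more than 200 and fewer than 6000 genes, over 1000 UMIs and under 10% mitochondrial counts were kept (54341), and 2696 doublets called by Scrublet were removed. The members were left out of the genes used for clustering (scanpy 1.11.5, leidenalg 0.10.2, 3000 variable genes, 40 components, 15 neighbours, resolution 1.5), and classes were named from marker genes.

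Counts were summed per class and mouse and tested with edgeR 4.0.16 (quasi-likelihood, TMM, filterByExpr, genotype alone, R 4.3.3) with Benjamini-Hochberg adjustment over all genes of the class. CPM are TMM-scaled, and pooled CPM and cluster values are not. Alternatives were DESeq2 1.42.0, no TMM, no filter, sex as a covariate, the mouse label as a replicate block, every deposited nucleus, and each library left out. The test was checked on simulated data. The members, gene lists and tests were chosen with earlier results of these data known. Members were given in full where called, where they were among the 3 largest at an unadjusted p under 0.05, where they were among the 3 nearest to Ifnar1 on each side, or for a well known role.

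Same-labelled mice of both genotypes deviated together from their genotype means (r = 0.437 for F1, 0.534 for F2, 0.603 for M1 and 0.457 for M2), all over 0.1, so the labels F1 to M2 were taken as pairs. Mice of the same sex with other labels did so too (0.291 to 0.719), and opposite sexes were at -0.308 to -0.712. The correlations therefore do not set same-labelled mice apart from others of their sex, and no sample label states a pairing.
Nothing in the labels says that mice of a genotype came from separate litters, and p-values set the genotype difference against the spread between these mice only.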

Additional observations from a re-analysis of the deposited data

Results flagged for a closer look

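Among groups of 4 mice, AC134560.1 over all nuclei had a value far from the others, 1.22 CPM in Wt M1 against 0.652, 0.717 and 0.726 CPM in the other Wt mice. It was 1 of 68 groups examined, and chance alone marks about 1 in 20. It lies below the lowest Ifnar1-/- mouse (1.52 CPM).

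The estimated genotype effect on Eva1c was apart between classes, by 1.62 on the log2 scale between GABAergic and glutamatergic neurons and by 3.72 between oligodendrocytes and glutamatergic neurons (exact permutation test, p = 0.0286 each, adjusted p = 0.129, and p = 0.125 with relabelling within same-labelled pairs). Neither passed the adjusted threshold. Both comparisons were chosen after the values were seen.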

How the results depend on the processing

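In all nuclei, where 0 members passed the adjusted threshold, DESeq2 called 2 (AC134560.1 and Gm15965), sex as a covariate 1 (Gm15965), and the other alternatives, every deposited nucleus among them, 0. In glutamatergic neurons (0) DESeq2, the sex covariate and the replicate block each called 1 (Gm15965), and leaving out a library gave 0 to 1, the 1 without Ifnar1-/- M1 (adjusted p = 0.0443). In GABAergic neurons (0) DESeq2 called 3 (Eva1c, AC134560.1 and Gm15965) and the sex covariate 2 (Eva1c and AC134560.1). In oligodendrocytes (0) DESeq2 called 2 (Eva1c and Gm15965). In microglia (1) the count was 0 without TMM and 0 to 1 when a library was left out. Oligodendrocyte precursors stayed at 0 throughout. The replicate block changed no other call of a member, and relabelling within pairs, added after the data were seen, took the exact permutation p of the Eva1c class differences from 0.0286 to 0.125, the smallest it allows. Over all genes, DESeq2 called 42, 44, 17, 17, 15 and 1 genes in all nuclei, glutamatergic neurons, GABAergic neurons, oligodendrocytes, microglia and oligodendrocyte precursors, and the sex covariate 18, 25, 9, 18, 14 and 0, against 9, 13, 4, 7, 10 and 0. The 20 member and class pairs at an unadjusted p under 0.05 kept their sign in 264 of 264 alternative values and that p in 227. Rare members limit what can be seen, such as Eva1c in Wt oligodendrocytes (15 UMIs).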

Other observations

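Hunk was lower in Ifnar1-/- in 32 of 38 clusters with at least 20 UMIs, 18 of 20 among glutamatergic ones, with log2 ratios from -1.37 to 1.36. The ratios pool all mice of a genotype, so the clusters are not independent counts. In glutamatergic neurons together Hunk stood at 22.2, 20.1, 57.7 and 32.5 CPM in Wt F1, F2, M1 and M2. In Ifnar1-/- mice it stood at 15.5, 23.5, 29.6 and 31 CPM, with overlap (log2 fold change -0.41, SE 0.35). Wt M1 held 1985 of the 4357 Wt UMIs there, and its part in the cluster ratios was not tested. Among glutamatergic clusters the lowest were -1.37 in the cluster led by Nr4a2 and Rai14, -1.20 in that led by Fam19a1 (174 and 64 UMIs) and -1.15 in that led by Serinc2. The highest over all clusters were 1.36 in an unnamed cluster (7 and 16 UMIs), 0.86 in newly formed oligodendrocytes (12 and 25 UMIs) and 0.61 in the cluster led by Smoc2 (34 and 53 UMIs).

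The genotype difference was also compared between males and females over all nuclei (edgeR's quasi-likelihood test of the interaction). It passed the adjusted threshold for 0 of 19925 genes, and 482 genes (2.42%) had an unadjusted p under 0.05. Among members these were Olig2 (log2 difference -1.26, SE 0.37), Olig1 (-1.13, SE 0.40) and Clic6, a chloride channel protein (-1.28, SE 0.52), each with an adjusted p = 1. The 6 oligodendrocyte markers summed to 1020 to 1793 CPM over Wt libraries and 893 to 1822 CPM over Ifnar1-/- libraries, and their part in the Olig1 and Olig2 values was not tested.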
